A study of Mus musculus with 8 samples.

Results

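Spermine and interferon-β (IFN-β) were set against each other as single stimuli in mouse bone marrow derived macrophages, phagocytes grown from marrow precursors in culture. The comparison used 4 of the 8 RNA sequencing libraries of the series, 2 from cells given spermine and collected at 0 h of IFN-β, and 2 from cells given the buffer PBS and collected at 3 h of IFN-β. It covered every gene that reached 1 FPKM (fragments per kilobase of gene, scaled to library depth, the scale the authors deposited) in at least 2 of the 8 libraries, which kept 11421 of 54532 genes, 9810 of them protein coding. The spermine cells had no IFN-β, and the IFN-β cells had no spermine. The other 4 libraries were PBS at 0 h, the shared baseline, and spermine with 3 h of IFN-β, and they are given beside the main values. The labels write the letter I with the time, and the series text supplies the name IFN-β. That text also names DMSO where the labels name PBS, and the extraction protocol names blood where the labels name macrophages. The dose and length of the spermine treatment, the dose of IFN-β and the mice behind the libraries are not stated in the labels. No group was held for 3 h without IFN-β, so the effects of IFN-β and of those 3 h cannot be told apart. Nothing in the labels says that libraries came from separate animals or cultures, so p-values measure the spread between 2 libraries a group, which may be technical.

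IFN-β is the type I interferon that cells release on meeting viral nucleic acid. It binds the receptor pair IFNAR1 and IFNAR2, whose kinases JAK1 and TYK2 phosphorylate STAT proteins. With IRF9 these form the complex ISGF3, which binds the interferon-stimulated response element (ISRE) in the promoters of antiviral genes. Spermine is a polyamine, a small polycation that all mammalian cells make from ornithine and that stabilises nucleic acids. Amine oxidases that act on polyamines release aldehydes and hydrogen peroxide. Oxidants and aldehydes free the transcription factor NRF2, which binds antioxidant response elements (ARE) in genes for glutathione, thioredoxin and iron handling, while amino acid shortage and other stresses raise the factor ATF4.

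The libraries held 15723437 to 17744844 reads over genes, and at this depth both groups held macrophage markers at high levels. The 10 markers listed for macrophages summed to between 12120 and 14850 FPKM in all 8 libraries. Their mean share of reads was 2.54% at baseline, 1.81% with IFN-β and 2.22% with spermine. Single markers differed: spermine minus IFN-β in log2(FPKM + 1) ran from -4.10 to 0.51. In limma (adjusted p under 0.05) 1 was higher with spermine and 2 with IFN-β, and under quantile normalization 6 and 3. Csf1r, the receptor for the macrophage growth factor CSF1, stood at 677 and 713 FPKM with IFN-β and at 709 and 730 with spermine. The defining markers of natural killer, mast, erythroid and stromal cells summed to under 1 FPKM in every library. Small sums were seen for the 7 dendritic cell markers, at 5.02 and 3.66 FPKM with IFN-β against 1.26 and 1.33 with spermine, and for the 8 T cell markers, at 7.90 and 7.76 against 3.50 and 3.00. The 5 platelet markers summed to 0.674 and 0.733 FPKM with IFN-β and to 3.70 and 2.48 with spermine, and the neutrophil and B cell sums lay between 2.82 and 8.41 in the 4 libraries. The part of such cells in the differences between stimuli was not tested, and in bulk RNA fewer cells of a type cannot be told apart from less RNA per cell.

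The 2 stimuli left the macrophages in widely separated states. Of the 11421 genes, 6324 (55.4%) differed between spermine and IFN-β in limma's moderated test at an adjusted p under 0.05. Spermine gave the higher level for 3257 genes (28.5%) and IFN-β for 3067 (26.9%). These 2 shares are the background for the list counts below. The balance ended at the large differences, which were mostly on the IFN-β side. A difference of at least 3 on the log2(FPKM + 1) scale was reached by 279 genes with IFN-β and by 43 with spermine, and one of at least 5 by 102 and by 1 gene. The median gene differed by 0.01, and the 95% interval of a typical gene reached 0.26 to either side. For 3327 genes that interval lay wholly within 0.5 of 0. All differences are given as spermine minus IFN-β on this scale, which understates folds of genes near or under 1 FPKM, and they are relative to the median gene because the deposited scale leaves it nearly level. Unless overlap is stated, the 2 libraries of one stimulus lay wholly above the 2 of the other for each gene named as higher.

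**Figure D1:**
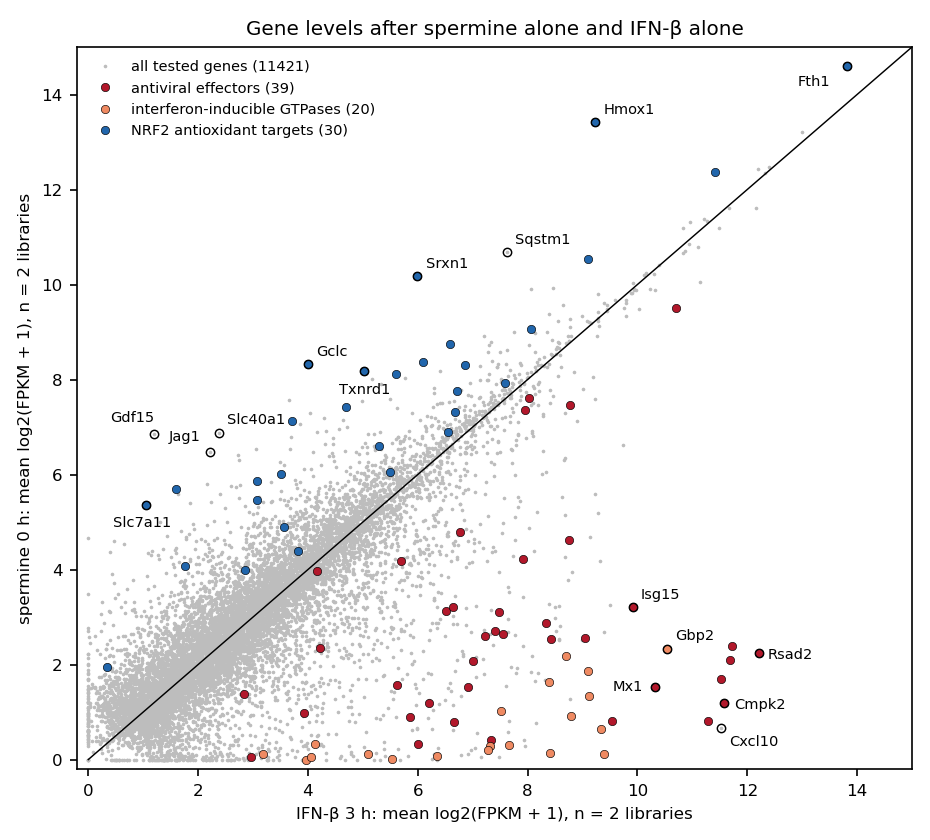
Mean log2(FPKM + 1) of each of the 11421 genes with IFN-β (x axis) and with spermine (y axis), 2 libraries each, with the line of equal level. The 39 antiviral effectors and 20 interferon-inducible GTPases lie below the line and the 30 NRF2 targets above it; names mark genes described in the text.

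Promoter sequences of some leading genes are shown first, to show what the ISRE, ATF4 and AP-1 motifs look like in genes that led each side. Promoter windows were taken from RefSeq on build GRCm38.p6, from 250 bases before to 50 bases after the annotated start, and 8085 of the 11421 genes matched by symbol, with 10270 windows. Printed here are the 250 bases before the start, on the gene's strand, 5′ to 3′, with the match in capitals. The first set holds genes that stood highest with IFN-β, and the capitals mark the core of an ISRE, GAAANNGAAA, on either strand. Rsad2 lies at chr12:26456453-26456702 (minus strand), Cxcl10 at chr5:92348890-92349139 (minus strand) and Ifit1 at chr19:34640639-34640888 (plus strand).
Rsad2: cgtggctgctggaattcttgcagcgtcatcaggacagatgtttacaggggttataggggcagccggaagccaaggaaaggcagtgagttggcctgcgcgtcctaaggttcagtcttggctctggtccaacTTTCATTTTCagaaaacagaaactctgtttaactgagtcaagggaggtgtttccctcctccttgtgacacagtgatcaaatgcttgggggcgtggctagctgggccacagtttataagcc
Cxcl10: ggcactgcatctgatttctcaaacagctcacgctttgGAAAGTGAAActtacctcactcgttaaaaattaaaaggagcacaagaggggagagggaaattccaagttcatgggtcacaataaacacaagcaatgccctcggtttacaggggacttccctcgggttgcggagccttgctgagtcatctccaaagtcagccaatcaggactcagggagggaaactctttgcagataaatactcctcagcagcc
Ifit1: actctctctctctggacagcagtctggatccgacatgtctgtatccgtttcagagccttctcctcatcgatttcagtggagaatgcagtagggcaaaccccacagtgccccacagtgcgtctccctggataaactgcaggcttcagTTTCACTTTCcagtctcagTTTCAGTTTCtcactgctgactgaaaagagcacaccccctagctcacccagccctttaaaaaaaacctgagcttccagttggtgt

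The match began 120 bases before the start in Rsad2 and 213 bases before it in Cxcl10, and Ifit1 held 2 matches that began at 104 and 85 bases. Over the windows of all tested genes, 3.47% held this core. The share was 27.9% among windows of genes at least 3 higher with IFN-β, 11.1% among those at least 1 higher, and 1.5% among those at least 1 higher with spermine. In the antiviral list 46.2% of 39 windows held it, and in the GTPase list 83.3% of 12. Cmpk2 and Ifit2, which rank beside these genes, held no such letters in the 250 bases before the start.

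The second set holds 3 genes high with spermine whose windows held a match. Gdf15, which led that side, and Jag1, Cxcl2 and Ampd3 held no ATF4, AP-1 or ARE letters in the same 250 bases, and none of the 3 printed held the ARE letters. In Slc7a11, at chr3:50443614-50443863 (minus strand), the capitals mark TGATGNAA, the core bound by ATF4 with a C/EBP partner, and in Srxn1, at chr2:152105274-152105523 (plus strand), and Osgin1, at chr8:119436897-119437146 (plus strand), they mark TGANTCA, the AP-1 site, a sequence that also lies within some sites of NRF2 with a small Maf protein.
Slc7a11: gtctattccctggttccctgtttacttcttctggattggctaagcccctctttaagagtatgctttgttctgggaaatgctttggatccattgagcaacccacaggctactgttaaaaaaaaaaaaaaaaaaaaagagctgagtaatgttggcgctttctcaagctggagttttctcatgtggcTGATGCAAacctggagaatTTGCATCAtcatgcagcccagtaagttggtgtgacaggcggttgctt
Srxn1: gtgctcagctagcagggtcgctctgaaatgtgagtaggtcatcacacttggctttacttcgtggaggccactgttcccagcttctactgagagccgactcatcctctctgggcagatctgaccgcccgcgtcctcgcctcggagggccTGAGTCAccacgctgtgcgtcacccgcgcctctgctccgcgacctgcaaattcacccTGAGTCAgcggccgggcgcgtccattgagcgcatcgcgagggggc
Osgin1: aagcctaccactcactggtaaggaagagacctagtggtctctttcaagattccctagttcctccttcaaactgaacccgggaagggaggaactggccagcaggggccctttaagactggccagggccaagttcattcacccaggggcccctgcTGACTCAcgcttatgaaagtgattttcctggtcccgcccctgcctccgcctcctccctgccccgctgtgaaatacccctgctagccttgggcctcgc

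The 2 matches in Slc7a11 began 66 and 47 bases before the start and faced opposite ways. Those in Srxn1 began at 102 and 45 bases, and the one in Osgin1 at 97 bases. Sought on both strands, the ATF4 core was found in 2.27% of all tested windows and in 30.0% of the 30 windows of the list of ATF4 and integrated stress response genes. The AP-1 site, sought in the same way, was found in 5.39% of all tested windows, in 14.3% of the 35 windows of NRF2 targets and in 6.22% of those of genes at least 1 higher with spermine. It was found more often on the IFN-β side, in 8.87% of windows of genes at least 1 higher and in 17.9% of those of the antiviral list. The ATF4 core was likewise found in 3.99% of windows of genes at least 1 higher with IFN-β and in 2.3% of those at least 1 higher with spermine. The ARE core TGACNNNGC, likewise on either strand, was found in 14.9% of all tested windows, in 31.4% of the NRF2 windows and in 19.0% of the windows of genes at least 1 higher with spermine, and it overlapped an AP-1 site in 48 windows. None of the 35 NRF2 windows held the ISRE core. These shares describe letters in short windows and show no binding.

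The antiviral effectors, genes that block viral entry, translation or replication, lay almost wholly on the interferon side. Of 39 tested members, 38 were higher with IFN-β, none was higher with spermine, and the list's median was -4.90. Against PBS at 0 h, 38 of them rose with IFN-β, where 24.6% of all genes rose and 25.0% fell. With spermine alone 8 rose and 15 fell, where 22.0% of all genes rose and 19.2% fell. As a share of all reads, the list took 8.72% and 7.996% of the IFN-β libraries, 0.188% and 0.185% of the spermine libraries and 0.233% and 0.221% at baseline. Of the 39, 4 were under 1 FPKM in all 0 h libraries and entered the test only through the libraries with IFN-β.

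Rsad2, which encodes viperin, the enzyme that makes a chain-terminating nucleotide, stood at 5125 and 4434 FPKM with IFN-β and at 3.73 and 3.78 with spermine, beside 3.23 and 2.92 at baseline. Its difference was -9.97 ± 0.09 (SE; limma adjusted p = 1.14e-08). Cmpk2, the mitochondrial nucleotide kinase encoded next to Rsad2, stood at 3035 and 3038 FPKM with IFN-β and at 1.09 and 1.51 with spermine. Both genes were at a few FPKM or less in every library without IFN-β. The Ifit proteins bind foreign 5′ ends of RNA. Ifit1 stood at 3307 and 2634 FPKM with IFN-β and at 2.07 and 2.38 with spermine, below the 6.66 and 4.09 of the baseline, with a difference of -9.84 ± 0.20 (limma adjusted p = 5.94e-08). Ifit3 stood at 3643 and 3143 FPKM with IFN-β, at 3.63 and 4.98 with spermine and at 8.73 and 7.82 at baseline. For both Ifit genes the spermine libraries lay below the baseline libraries as well as below the IFN-β libraries, and spermine against PBS gave -0.96 for Ifit1 (limma adjusted p = 0.00859) and -0.82 for Ifit3 (limma adjusted p = 0.00332). Members of the Ifit, Gbp, Trim30, Schlafen, Ifi200 and H2 families share sequence, and no label says how reads that fit several copies were assigned.

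Isg15, the ubiquitin-like modifier, stood at 864 and 1071 FPKM with IFN-β and at 6.79 and 9.96 with spermine, a difference of -6.70 ± 0.17 (limma adjusted p = 1.68e-07). Mx1, the dynamin-like GTPase that traps viral nucleoproteins, stood at 1369 and 1180 FPKM against 2.14 and 1.67. In Isg15 and Mx1 the spermine libraries overlapped the baseline, which was 6.76 and 7.55 FPKM for Isg15 and 2.38 and 1.85 for Mx1. The OAS enzymes sense double-stranded RNA and feed RNase L. Oas2 stood at 197 and 175 FPKM with IFN-β, at 5.06 and 5.45 with spermine and at 12.5 and 9.72 at baseline. The smallest differences in the list belonged to genes already abundant without interferon. Ifitm3, which blocks viral fusion at endosomes, stood at 1690 and 1628 FPKM with IFN-β and at 752 and 694 with spermine, a difference of -1.20. Ifi27 was the member not called, at 15.3 and 18.8 FPKM with IFN-β and 13.2 and 16.1 with spermine (-0.21, limma adjusted p = 0.205).

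**Figure D2:**
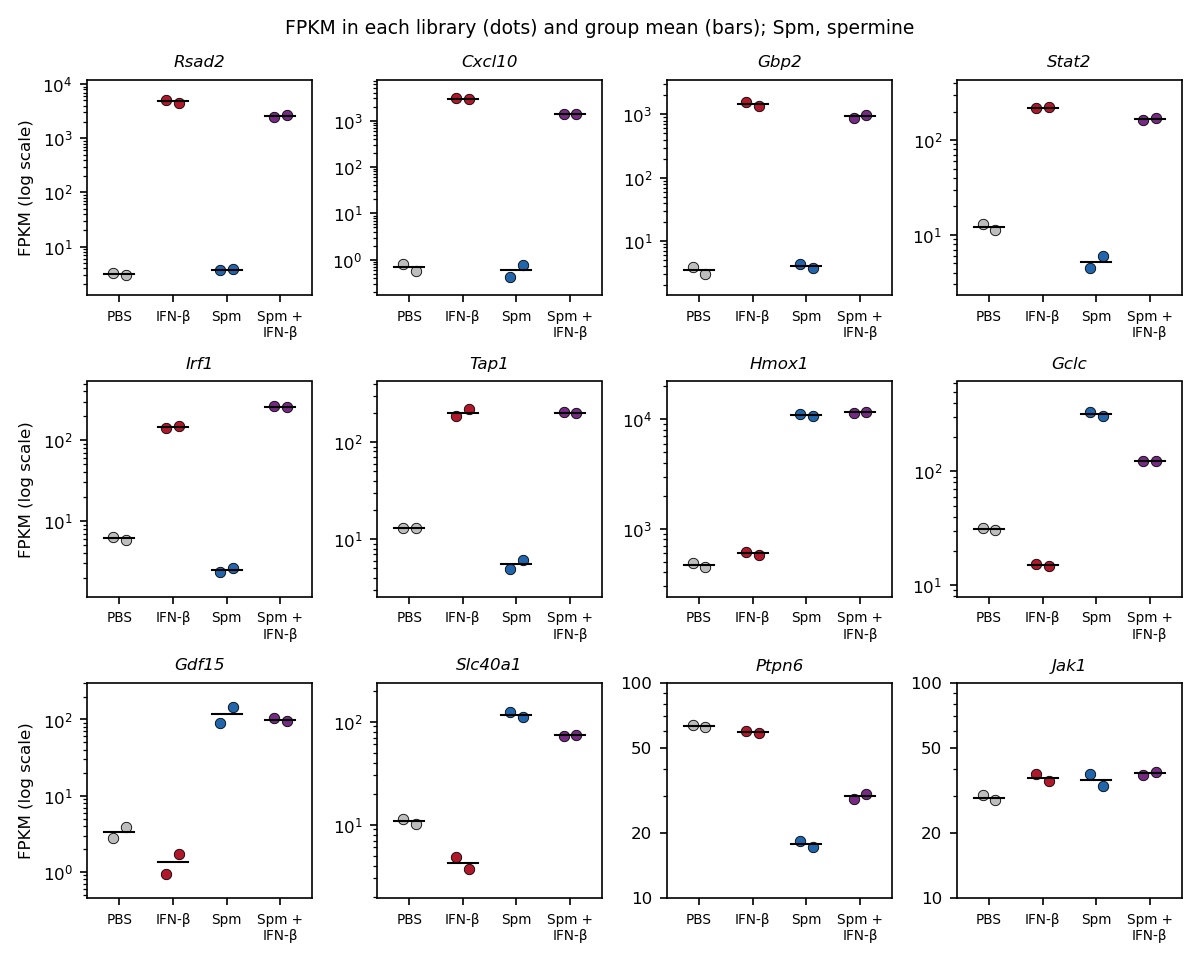
FPKM on a log scale in each of the 8 libraries for 12 genes, with the group mean as a bar: PBS 0 h, IFN-β 3 h, spermine 0 h, and spermine with IFN-β 3 h. Rsad2 and Cxcl10 reach 2870 to 5125 FPKM with IFN-β and at most 3.78 with spermine, Hmox1 and Gclc show the opposite order, and Jak1 lies at 33.4 to 37.8 FPKM in the 4 libraries compared.

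The GTPases induced by interferon, which act on vacuoles that hold intracellular microbes, were higher with IFN-β in all 20 tested, with a list median of -6.90. Of these, 12 were under 1 FPKM in every library without IFN-β and passed the filter only through libraries with it, so their direction was given by the filter. Iigp1, an immunity-related GTPase, stood at 756 and 589 FPKM with IFN-β and at 0.0774 and 0.0881 with spermine, and it was among those 12. Gbp2, a guanylate-binding protein, stood at 1596 and 1375 FPKM with IFN-β, at 4.30 and 3.80 with spermine and at 3.85 and 3.06 at baseline. Igtp stood at 579.7 and 521 FPKM with IFN-β, at 2.48 and 2.77 with spermine and at 4.73 and 5.01 at baseline. Gbp2 in spermine was at its baseline level, while Igtp was below it by 0.70. In all, 8 of the 20 fell with spermine against PBS and none rose. Gbp11 had no read in either spermine library.

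Among the PARP, TRIM and Schlafen genes, which modify or restrict RNA and viral proteins, all 32 tested were higher with IFN-β and the median was -4.48, and 3 of them were under 1 FPKM in every 0 h library. Against the baseline all 32 rose with IFN-β, and with spermine 2 rose and 18 fell. Dtx3l, the ubiquitin ligase partner of PARP9, stood at 237 and 209 FPKM with IFN-β, at 2.81 and 2.76 with spermine and at 10.8 and 9.72 at baseline. Slfn5 stood at 761 and 690 FPKM with IFN-β, at 8.61 and 8.34 with spermine and at 19.3 and 15.9 at baseline. Both genes thus had 3 separate levels, with spermine the lowest. Trim25, the ligase that activates RIG-I, was among the smallest differences at -1.003, and it rose against PBS with either stimulus.

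The pathway that carries the interferon signal differed less than its targets. Of 17 genes for receptors, Janus kinases and STATs, 12 were higher with IFN-β, 2 with spermine and 3 were not called. Stat2, a subunit of ISGF3, stood at 216 and 221 FPKM with IFN-β, at 4.48 and 5.92 with spermine and at 13.2 and 11.2 at baseline, a difference of -5.16 ± 0.12 (limma adjusted p = 1.21e-07). Stat2 therefore fell with spermine and rose with IFN-β. Irf9, which gives ISGF3 its DNA contact, differed by -2.78, and Jak2 by -2.57.

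The kinase that sits on IFNAR2 was not called. Jak1 stood at 37.6 and 35.0 FPKM with IFN-β and at 37.8 and 33.4 with spermine, beside 30.1 and 28.5 at baseline. The 4 values overlapped and the difference was -0.03, with a 95% interval from -0.22 to 0.16 (limma adjusted p = 0.787), and its sign turned under other scalings. Tyk2, the kinase on IFNAR1, stood at 17.5 and 21.2 FPKM with IFN-β and at 6.52 and 8.46 with spermine, against 11.0 and 12.02 at baseline (-1.26 ± 0.13, limma adjusted p = 0.000187). The receptor mRNAs lay close together. Ifnar1 stood at 31.4 and 30.4 FPKM with IFN-β and at 27.2 and 25.9 with spermine (-0.21, limma adjusted p = 0.0384), a call that was lost when any of the 8 libraries was left out (limma adjusted p from 0.0517 to 0.150). Ifnar2 differed by -0.33 (limma adjusted p = 0.00339), which was lost under quantile normalization. The receptors for interferon-γ moved apart from these: Ifngr1 fell against PBS by 1.59 with IFN-β and by 1.09 with spermine, which left it higher with spermine by 0.50.

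Of the 16 brakes on cytokine signalling, 9 were higher with IFN-β and 3 with spermine. Of the 16, 3 were under 1 FPKM in every 0 h library, Socs1 among them, and passed the filter only through libraries with IFN-β. Usp18, the ISG15 protease that also displaces JAK1 from the receptor, stood at 441 and 429 FPKM with IFN-β and at 1.45 and 1.38 with spermine, a difference of -7.50 ± 0.06 (limma adjusted p = 1.14e-08). Socs1, the inhibitor of JAK kinases, stood at 158 and 251 FPKM against 0.249 and 0.775. These are feedback genes that interferon itself induces. Socs3, which brakes the STAT3 pathway, was raised by both stimuli, to 17.1 and 21.8 FPKM with IFN-β and to 4.66 and 4.28 with spermine from 0.816 and 0.910 at baseline. Ptpn1, a phosphatase that acts on JAK2 and TYK2, stood at 59.2 and 70.9 FPKM with IFN-β and at 65.2 and 69.97 with spermine, overlapping values that were both above the 24.3 and 25.9 of the baseline (difference 0.06, limma adjusted p = 0.634). Ptpn6, the phosphatase SHP-1, moved with spermine alone. It stood at 18.5 and 17.2 FPKM with spermine, at 60.1 and 58.3 with IFN-β and at 63.6 and 62.7 at baseline, a difference of -1.67 ± 0.06 (limma adjusted p = 1.15e-06). Socs5 was the brake that stood highest with spermine relative to IFN-β, at 9.21 and 9.31 FPKM against 2.23 and 2.09.

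Of the 6 interferon regulatory factors tested, 5 were higher with IFN-β, and Irf3, the constitutive factor that starts IFN-β transcription, was not called (-0.39, limma adjusted p = 0.0688), though all 6 were called by limma voom and without spermine replicate 2. Irf7, the factor that amplifies interferon production, stood at 515 and 609.5 FPKM with IFN-β and at 22.6 and 27.4 with spermine. Irf1 stood at 141 and 151 FPKM with IFN-β, at 2.34 and 2.65 with spermine and at 6.33 and 5.84 at baseline, a difference of -5.39 ± 0.08 (limma adjusted p = 1.69e-08). Irf8, a factor of the macrophage lineage, stood at 61.9 and 72.1 FPKM with IFN-β, at 11.7 and 14.5 with spermine and at 31.0 and 32.4 at baseline. For Irf1 and Irf8 the baseline lay between the stimuli, and for Irf7 the baseline of 22.01 and 23.3 FPKM lay with spermine.

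Sensors of nucleic acid and Toll-like receptors were mostly higher with IFN-β: 28 of 33, with 2 higher with spermine and a median of -3.38. Among the 33, 3 were under 1 FPKM in every 0 h library and passed the filter only through libraries with IFN-β. Against PBS, spermine lowered 18 of the 33 and raised 1, Ticam1. Ddx58, which encodes the RNA helicase RIG-I, stood at 235 and 206 FPKM with IFN-β, at 2.65 and 2.39 with spermine and at 5.47 and 4.83 at baseline. Tlr9, the receptor for unmethylated DNA, stood at 35.2 and 41.6 FPKM with IFN-β, at 3.65 and 2.94 with spermine and at 10.2 and 10.5 at baseline, and Tlr3, the receptor for double-stranded RNA, differed by -5.50. The adaptors split. Myd88, used by most Toll-like receptors, differed by -2.21, whereas Ticam1, the adaptor TRIF of Tlr3 and Tlr4, stood at 16.7 and 17.3 FPKM with spermine and at 6.27 and 6.83 with IFN-β (1.26 ± 0.07, limma adjusted p = 6.04e-06). Mavs, the adaptor of RIG-I, was not called (0.15, limma adjusted p = 0.226).

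MHC class I genes and the machinery that loads them with peptide were higher with IFN-β in 21 of 22 cases, with a median of -2.48. Tap1, a subunit of the peptide transporter, stood at 184 and 218 FPKM with IFN-β, at 4.92 and 6.04 with spermine and at 12.9 and 12.96 at baseline. Psmb9, an immunoproteasome subunit, stood at 51.0 and 58.9 FPKM with IFN-β, at 2.72 and 2.25 with spermine and at 6.10 and 6.495 at baseline. These accessory genes differed more than the classical heavy chains: H2-K1 differed by -0.55, and H2-D1 was not called (-0.16, 95% interval -0.55 to 0.23). Of 6 MHC class II genes, 5 were not called. Among costimulatory genes, Cd40 stood at 62.6 and 62.9 FPKM with IFN-β and at 0.745 and 0.404 with spermine, and Cd274, which encodes PD-L1, stood at 443 and 380.3 FPKM with IFN-β and at 36.2 and 32.4 with spermine, above its baseline of 10.3 and 9.43 in both. Of 14 costimulatory genes tested, 2 were under 1 FPKM in every 0 h library, Cd40 among them, and passed the filter only through libraries with IFN-β.

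Interferon-inducible chemokines and cytokines were all higher with IFN-β, 18 of 18, with a median of -4.65, and 7 of them were under 1 FPKM in every 0 h library. Cxcl10, which attracts T cells through CXCR3, had the largest difference of the genes named here. It stood at 2999 and 2870 FPKM with IFN-β, at 0.429 and 0.781 with spermine and at 0.834 and 0.573 at baseline, a difference of -10.85 ± 0.12 (SE). It was among those 7, which passed the filter only through libraries with IFN-β. Ccl12 and Cxcl11 had no read in any 0 h library. Ccl4, Ccl3 and Ccl2, which attract monocytes and other leukocytes, rose with spermine as well. Ccl4 stood at 683 and 591 FPKM with IFN-β, at 18.02 and 16.4 with spermine and at 7.21 and 5.49 at baseline, and Ccl3 stood at 202 and 176, 46.7 and 42.2, and 17.6 and 17.4 FPKM. Ccl2 rose against PBS by 6.10 with IFN-β and by 1.04 with spermine.

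NF-κB inflammatory genes did not take 1 side: 12 of 25 were higher with IFN-β, 8 with spermine and 5 were not called, with a median of -0.14 that rose to 0.0038 under quantile normalization. Among the 25, 2 were under 1 FPKM in every 0 h library and passed the filter only through libraries with IFN-β. Icam1, an adhesion molecule, stood at 48.2 and 53.6 FPKM with IFN-β, at 5.04 and 6.15 with spermine and at 11.8 and 12.4 at baseline. Tnf rose with either stimulus, from 7.17 and 7.30 FPKM to 29.6 and 29.7 with IFN-β and to 26.1 and 27.5 with spermine, and its difference of -0.14 was not called (limma adjusted p = 0.110). The neutrophil chemokines Cxcl2 and Cxcl3 went the other way, while Cxcl1 and Cxcl5 were below the filter. Cxcl2 stood at 21.1 and 18.2 FPKM with spermine, at 0.312 and 0.329 with IFN-β and at 1.35 and 1.42 at baseline, a difference of 3.97 ± 0.12 (limma adjusted p = 3.56e-07). Cxcl3 stood at 5.20 and 4.79 FPKM with spermine and at 0 and 0.0177 with IFN-β. It was under 1 FPKM in every library but those of spermine alone, so its direction was given by the filter. Ptgs2, the inducible cyclooxygenase, stood at 12.9 and 11.9 FPKM with spermine and at 2.60 and 2.15 with IFN-β, and Il1b at 5.95 and 4.67 against 1.54 and 1.17. All 3 of Cxcl2, Ptgs2 and Il1b were above baseline with spermine, and Cxcl2 and Il1b were below it with IFN-β.

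**Figure D3:**
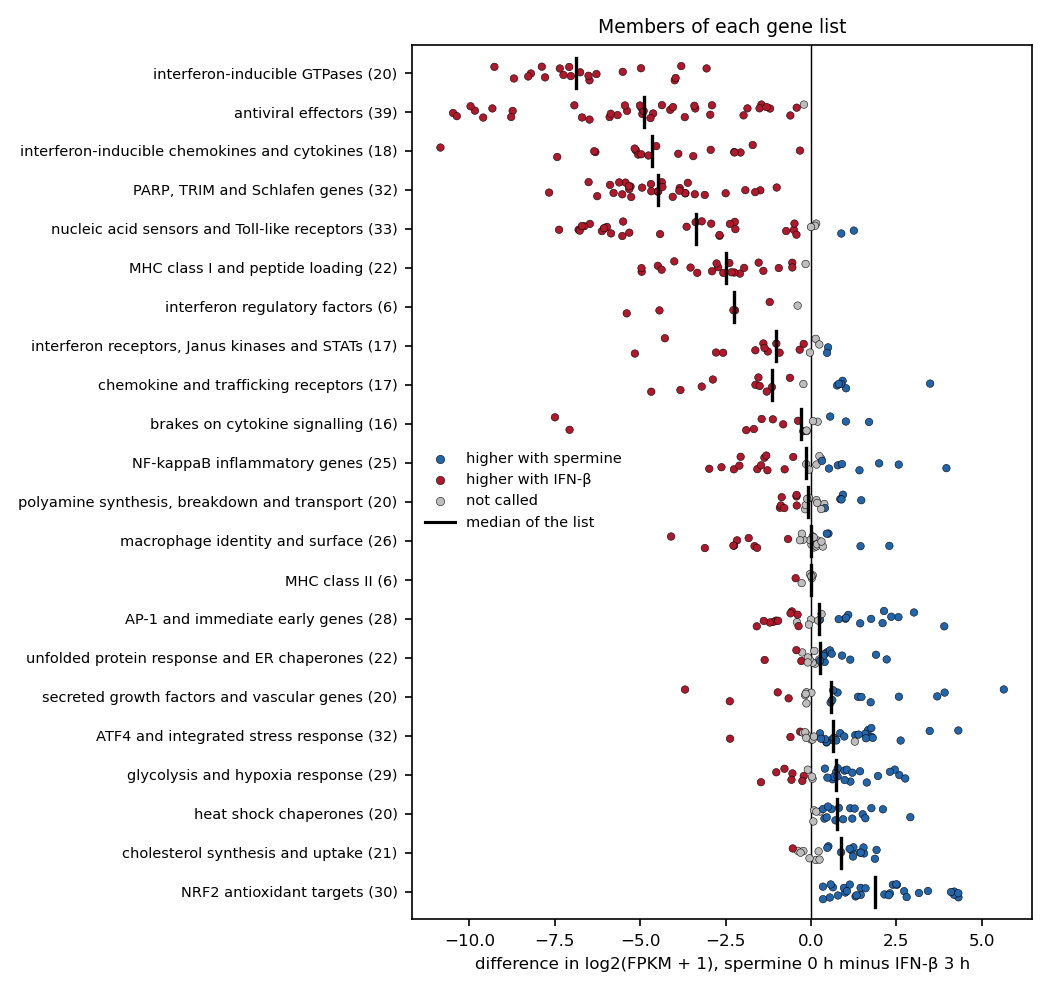
Difference in log2(FPKM + 1), spermine minus IFN-β, of every tested member of 22 gene lists, with the list's median as a bar and colour for the call in limma (adjusted p under 0.05). Lists run from the GTPases, median -6.90, at the top to the NRF2 targets, median 1.87, at the bottom, beside a median over all genes of 0.01.

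On the spermine side the NRF2 targets moved together. All 30 tested were higher with spermine than with IFN-β, with a median of 1.87, and between 28 and 30 of them were called under the alternatives tried. Against PBS, 29 rose with spermine and none fell, while with IFN-β 5 rose and 12 fell. The list took 7.41% and 7.71% of reads in the spermine libraries, 2.00% and 2.15% with IFN-β and 3.24% and 3.33% at baseline. None of its members was under 1 FPKM in all 0 h libraries, but these include the spermine libraries. Hmox1, Gclc and Slc7a11 were over 1 FPKM in both PBS 0 h libraries, so they would pass the filter without spermine. Whether any other member passed only through libraries with spermine was not counted.

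Hmox1, which encodes haem oxygenase-1, the enzyme that breaks haem into biliverdin, carbon monoxide and iron, stood at 11280 and 10680 FPKM with spermine, at 617 and 578 with IFN-β and at 490.2 and 449 at baseline. The spermine level was 18.4 times the IFN-β level, and the difference was 4.20 ± 0.07 (limma adjusted p = 3.48e-08). Genes of glutathione supply and recycling come next. Slc7a11, the cystine importer xCT, stood at 43.9 and 37.0 FPKM with spermine and at 1.19 and 0.965 with IFN-β, against 2.29 and 2.18 at baseline (4.32 ± 0.10, limma adjusted p = 1.19e-07). Gclc, the catalytic subunit of the rate-limiting enzyme, stood at 329.8 and 309 FPKM with spermine, at 15.4 and 14.8 with IFN-β and at 31.6 and 30.7 at baseline (4.32 ± 0.06, limma adjusted p = 1.69e-08). Both genes were thus above baseline with spermine and below it with IFN-β. Gclm, its modifier subunit, stood at 271 and 280.1 FPKM with spermine and at 47.0 and 47.8 with IFN-β, the latter within the baseline values of 46.8 and 48.2. Gsr, which regenerates reduced glutathione, stood at 132 and 147 FPKM with spermine and at 12.3 and 11.8 with IFN-β.

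The thioredoxin arm moved the same way. Srxn1, the sulfiredoxin that repairs overoxidised peroxiredoxins, stood at 1181 and 1142 FPKM with spermine, at 61.9 and 63.5 with IFN-β and at 145 and 145 at baseline. Txnrd1, thioredoxin reductase, stood at 288 and 288 FPKM with spermine and at 32.5 and 30.1 with IFN-β. Prdx1, a peroxiredoxin, rose with both stimuli, to 1637 and 1367 FPKM with spermine and to 619 and 482 with IFN-β from 353 and 272 at baseline. Enzymes that supply NADPH were less far apart. Pgd of the pentose phosphate pathway stood at 301 and 335 FPKM with spermine and at 108 and 122 with IFN-β, and Txn1 and Gpx4 had the smallest differences of the list at 0.35 each. In iron handling, Slc40a1, the iron exporter ferroportin, stood at 124 and 109.7 FPKM with spermine, at 4.82 and 3.67 with IFN-β and at 11.4 and 10.1 at baseline (4.50 ± 0.12, limma adjusted p = 2.11e-07). The ferritin heavy chain gene Fth1 stood at 24040 and 26020 FPKM with spermine and at 14110 and 14820 with IFN-β.

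Sqstm1, the autophagy receptor p62 that also frees NRF2 from its inhibitor, stood at 1535 and 1754 FPKM with spermine and at 186 and 207 with IFN-β, where the baseline was 304 and 338. It was the largest difference of the lysosome and autophagy list, at 3.06 ± 0.10 (limma adjusted p = 4.76e-07). In the list as a whole 11 of 30 were higher with spermine, 5 with IFN-β and 14 were not called, and quantile normalization gave 18 and 3. Tfeb, the factor that drives lysosomal genes, stood at 7.03 and 8.62 FPKM with spermine, overlapping its baseline of 7.90 and 9.87, and at 1.19 and 2.05 with IFN-β.

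ATF4 and integrated stress response genes were higher with spermine in 21 of 32 cases and with IFN-β in 3. Against PBS 20 rose with spermine and none fell, and with IFN-β 9 rose and 10 fell. Atf4 itself stood at 167 and 167 FPKM with spermine, at 48.1 and 48.2 with IFN-β and at 56.0 and 49.0 at baseline (1.77 ± 0.07, limma adjusted p = 1.83e-06). Ppp1r15a, the phosphatase subunit GADD34 that restores translation, stood at 66.3 and 78.4 FPKM with spermine and at 10.1 and 11.6 with IFN-β. Ddit3, the factor CHOP, stood at 27.3 and 30.2 FPKM with spermine and at 9.62 and 8.20 with IFN-β. Genes of amino acid supply varied: Asns, asparagine synthetase, differed by 0.61, and Psat1 and Shmt2 were not called. The cystine importer gene Slc7a11 had the largest difference of the list, at 4.32. Regulators varied as well, since Cebpb was not called and Nupr1 was higher with IFN-β (-0.60). Wars, the tryptophanyl-tRNA synthetase and a known interferon target, was the main exception, at 64.4 and 66.0 FPKM with IFN-β and at 12.6 and 11.1 with spermine (-2.37). Ddit4, an inhibitor of mTORC1 signalling, stood at 11.9 and 16.5 FPKM with spermine and at 0.286 and 0.423 with IFN-β, on either side of its baseline of 1.77 and 1.75.

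Heat shock chaperones were higher with spermine in 16 of 20 cases and with IFN-β in none, with a median of 0.77. Dnajb4, a DNAJ co-chaperone, stood at 26.0 and 23.5 FPKM with spermine, at 2.53 and 2.32 with IFN-β and at 5.32 and 4.69 at baseline. Hspa1a, an inducible HSP70, stood at 8.06 and 12.3 FPKM with spermine and at 1.26 and 1.88 with IFN-β, and it shares sequence with its neighbour Hspa1b. Genes of the unfolded protein response in the endoplasmic reticulum were less one-sided, with 11 of 22 higher with spermine, 3 with IFN-β and 8 not called. Hspa5, the chaperone BiP, rose with either stimulus, from 78.8 and 77.8 FPKM to 239.8 and 222 with IFN-β and to 196 and 183 with spermine, and its call of -0.28 was lost under TPM scaling, in a fit of the 2 groups alone and without spermine replicate 2, and it turned sign under quantile normalization. Herpud1, a part of the degradation pathway of that compartment, stood at 9.45 and 8.81 FPKM with spermine and at 1.14 and 1.22 with IFN-β.

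Of 20 polyamine genes tested, 5 were higher with spermine, 7 with IFN-β and 8 were not called, shares near the 28.5% and 26.9% over all genes, and the median of -0.08 became 0.03 under TPM scaling. Odc1, ornithine decarboxylase, the first enzyme of polyamine synthesis, stood at 45.1 and 43.5 FPKM with spermine, at 23.99 and 21.4 with IFN-β and at 16.9 and 17.9 at baseline (0.94 ± 0.07, limma adjusted p = 4.12e-05). Azin1, the decoy that shields ornithine decarboxylase from antizyme, stood at 52.0 and 46.6 FPKM with spermine and at 18.6 and 15.8 with IFN-β, around a baseline of 23 and 24.1. Amd1, which makes the aminopropyl donor, was low with spermine: 8.68 and 7.37 FPKM, against 17.4 and 13.4 with IFN-β and 19.1 and 17.3 at baseline (-0.86 ± 0.13, limma adjusted p = 0.00127). Sat1, which acetylates spermine and spermidine for breakdown, was raised by both stimuli, to 220.3 and 202 FPKM with IFN-β and to 161 and 154 with spermine from 101 and 96.4, and its difference of -0.42 was lost under quantile normalization. Smox, spermine oxidase, stood at 27.2 and 37.3 FPKM with IFN-β and at 25.3 and 31.4 with spermine, overlapping values above the 12.6 and 16.1 of the baseline (-0.17, 95% interval -0.61 to 0.26). Oaz1, the antizyme, was not called (0.39, limma adjusted p = 0.202).

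Carbohydrate and sterol metabolism stood higher with spermine. Of 29 genes of glycolysis and the hypoxia response, 19 were higher with spermine and 7 with IFN-β. Slc2a1, the glucose transporter GLUT1, stood at 108 and 130.5 FPKM with spermine, at 18.9 and 19.1 with IFN-β and at 24.4 and 27.9 at baseline, and Slc16a3, the lactate exporter MCT4, stood at 97.6 and 119.5 FPKM against 19.1 and 22.9. Among enzymes of the pathway, Pgk1 differed by 1.15 and Ldha by 0.48. Gapdh was listed at only 6.74 and 19.5 FPKM with spermine and 1.35 and 1.24 with IFN-β (2.46), and it has many processed copies in the genome that share its sequence. The entry and control steps were divided, since Hk3, a hexokinase, stood at 196 and 222 FPKM with IFN-β and at 70.5 and 80.1 with spermine, and Pfkfb3 also stood higher with IFN-β. Of 21 genes of cholesterol synthesis and uptake, 13 were higher with spermine and 1, Pmvk, with IFN-β, a call that was lost under some alternatives. Sqle, squalene epoxidase, stood at 33.0 and 30.4 FPKM with spermine, at 10.3 and 10.0 with IFN-β and at 19.3 and 20.4 at baseline. Sqle thus lay above baseline with spermine and below it with IFN-β. Ch25h, which makes the antiviral sterol 25-hydroxycholesterol, stood at 98.0 and 99.0 FPKM with IFN-β and at 0.537 and 0.529 with spermine.

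Secreted and vascular genes gave the top of the spermine side. Gdf15, a stress-induced cytokine of the TGF-β family, stood at 89.1 and 146 FPKM with spermine, at 0.928 and 1.74 with IFN-β and at 2.83 and 3.94 at baseline, a difference of 5.65 ± 0.26 (limma adjusted p = 2.98e-06). It was the single gene at least 5 higher with spermine. Procr, the endothelial protein C receptor, stood at 180 and 198 FPKM with spermine and at 11.2 and 12.01 with IFN-β, and Ednrb, an endothelin receptor, stood at 89.6 and 80.1 FPKM against 6.25 and 5.04. Thbs1, the matrix protein thrombospondin-1, stood at 1006 and 947 FPKM with spermine and at 362 and 338 with IFN-β. Oncostatin M (Osm), a cytokine of the IL-6 family, stood at 82.8 and 89.8 FPKM with spermine, at 30.9 and 34.4 with IFN-β and at 7.53 and 7.82 at baseline. Not all proteins of this class followed: Mmp13, a collagenase, stood at 133 and 102 FPKM with IFN-β and at 9.37 and 6.95 with spermine, and Plau, the urokinase gene, at 53.7 and 58.1 FPKM against 10.5 and 9.38.

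Immediate early and AP-1 genes were divided. Of 28, 13 were higher with spermine and 10 with IFN-β, beside 28.5% and 26.9% over all genes. Fosl1, an AP-1 subunit, stood at 22.4 and 22.4 FPKM with spermine and at 0.420 and 0.725 with IFN-β, where the baseline was 0.819 and 0.814. It thus passed the filter only through libraries with spermine, so its direction was given by the filter. Mafg, a small Maf protein that pairs with NRF2, stood at 50.8 and 56.8 FPKM with spermine and at 5.82 and 5.71 with IFN-β, around a baseline of 25.9 and 26.8. Mafk, of the same family, was the reverse, at 59.8 and 68.3 FPKM with IFN-β and 18.8 and 22.6 with spermine. Myc stood at 8.09 and 7.69 FPKM with spermine and at 0.607 and 0.888 with IFN-β. Among the phosphatases and inhibitors that brake MAP kinases, Dusp1 stood at 215 and 266 FPKM with spermine and at 34.7 and 44.4 with IFN-β, whereas Spred1, an inhibitor of Ras signalling, stood at 84.3 and 74.4 FPKM with IFN-β and at 6.81 and 5.97 with spermine.

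Receptors that guide macrophage movement were higher with IFN-β in 10 of 17 cases and with spermine in 6. Among the 17, 3 were under 1 FPKM in every 0 h library and passed the filter only through libraries with IFN-β. S1pr1, the sphingosine 1-phosphate receptor that steers cells out of tissues, stood at 93.7 and 90.2 FPKM with spermine, at 6.87 and 7.70 with IFN-β and at 64.0 and 65.0 at baseline (3.49 ± 0.08, limma adjusted p = 1.33e-07). Cxcr4 was lowered by both, to 53.3 and 47.3 FPKM with IFN-β and to 108 and 98.8 with spermine from 241 and 216. P2ry14, a nucleotide sugar receptor, stood at 12.8 and 10.8 FPKM with IFN-β and at 0.393 in both spermine libraries. Among macrophage identity genes 13 of 26 were not called, a number that was 8 under TPM scaling and 5 under quantile normalization. Fcgr1, the high-affinity IgG receptor, stood at 638 and 611 FPKM with IFN-β and at 38.4 and 32.9 with spermine, below the 53.7 and 50.9 of the baseline. Cebpa, a myeloid transcription factor, stood at 106 and 152 FPKM with spermine and at 20.3 and 30.8 with IFN-β, and Cd36, a scavenger receptor, at 482 and 399 FPKM against 185 and 138.

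Genes of lytic cell death were higher with IFN-β in 16 of 24 cases and with spermine in 4. Casp4, the inflammatory caspase that senses cytosolic lipopolysaccharide, stood at 67.4 and 50.6 FPKM with IFN-β, at 3.32 and 2.82 with spermine and at 3.04 and 2.34 at baseline. Mlkl, the executor of necroptosis, was raised by both, to 90.3 and 80.2 FPKM with IFN-β and to 10.6 and 10.0 with spermine from 6.48 and 4.93. Members higher with spermine included triggers of mitochondrial apoptosis: Bcl2l11, which encodes BIM, stood at 32.6 and 30.7 FPKM with spermine and at 12.9 and 12.2 with IFN-β, below its baseline of 27.9 and 27.7. Pmaip1, which encodes NOXA, stood at 17.4 and 15.1 FPKM with spermine and at 6.77 and 5.66 with IFN-β, around a baseline of 11.2 and 10.3.

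The p53 target list was split, with 6 of 15 higher with spermine and 4 with IFN-β, beside 28.5% and 26.9% over all genes. The 4 became 1 without spermine replicate 2 and 2 without IFN-β replicate 1 or without either library of spermine with IFN-β. Cdkn1a, the cell cycle inhibitor p21, rose with both, to 295 and 323 FPKM with IFN-β and to 148 and 159 with spermine from 49.0 and 53.05 (-1.005 ± 0.08, limma adjusted p = 3.72e-05). Sesn2, a stress-induced sestrin, stood at 16.8 and 16.6 FPKM with spermine and at 3.24 and 5.38 with IFN-β. Among 22 cell cycle genes, 9 were higher with IFN-β, 3 with spermine and 10 were not called. Without IFN-β replicate 1 these numbers were 4, 1 and 17, and without spermine replicate 2 they were 5, 2 and 15. Among the 22, 3 were under 1 FPKM in every 0 h library and passed the filter only through libraries with IFN-β. The D-type cyclins led: Ccnd1 stood at 16.5 and 20.0 FPKM with IFN-β, at 1.06 and 0.876 with spermine and at 2.31 and 2.57 at baseline, and Ccnd2 at 11.1 and 11.3 FPKM against 0.0963 and 0.0643. Mki67, the proliferation marker, stayed under 3 FPKM in all 8 libraries.

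In the TGF-β pathway 7 of 16 genes were higher with spermine and 4 with IFN-β, where 28.5% and 26.9% of all genes were. Tgfbr1, the type I receptor, was lowered by both, to 7.64 and 6.75 FPKM with IFN-β and to 26.7 and 22.6 with spermine from 49.1 and 48.7. Smad2, a signal transducer, stood at 18.7 and 17.3 FPKM with spermine and at 5.75 and 5.18 with IFN-β, and Skil, a repressor of SMADs, at 30.4 and 26.7 FPKM with spermine and at 78.9 and 65.8 with IFN-β. In the metal list, ferroportin included, 7 of 19 were higher with spermine and 6 with IFN-β, beside the same 28.5% and 26.9% over all genes. Slc30a1, a zinc exporter, rose with both, to 24.1 and 24.8 FPKM with IFN-β and to 14.3 and 12.9 with spermine from 3.63 and 4.05, and Slc11a1, the phagosomal metal transporter NRAMP1, stood at 162 and 178 FPKM with spermine and at 75.2 and 78.5 with IFN-β.

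Of 10 genes tied to alternative activation, 4 were higher with IFN-β, 3 with spermine and 3 were not called. Over all genes 26.9% were higher with IFN-β and 28.5% with spermine. Mrc1, the mannose receptor, stood at 56.7 and 46.6 FPKM with IFN-β, at 16.5 and 14.9 with spermine and at 13.4 and 13.04 at baseline (-1.65 ± 0.10, limma adjusted p = 1.29e-05). Pparg, a nuclear receptor for lipids, stood at 4.08 and 2.83 FPKM with IFN-β, at 11.2 and 11.1 with spermine and at 12.04 and 11.8 at baseline. In sterol efflux, Abcg1, a cholesterol transporter, stood at 78.4 and 85.6 FPKM with IFN-β and at 10.2 and 11.0 with spermine, while Mylip, the ligase that degrades the LDL receptor, stood at 8.998 and 9.27 FPKM against 41.4 and 43.5. Of the 13 mitochondrially encoded transcripts, none was called.

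A last set of genes was chosen by rule for how each stimulus moved them against PBS at 0 h, so those changes describe the choice and are given without a test. The 2 changes share the PBS 0 h libraries. Genes that rose with either included Nampt, the enzyme of NAD salvage, at 3.30 with IFN-β and 2.10 with spermine, and Osm, at 1.95 and 3.33. Csrnp1, a nuclear protein, rose by 3.33 with IFN-β and by 2.11 with spermine, and Pim1, a kinase, by 2.00 and 2.36. Genes that fell with either included Sesn1, a sestrin that restrains mTORC1, which fell by 2.70 with IFN-β and by 2.49 with spermine, and the fractalkine receptor gene Cx3cr1, which fell by 2.21 and by 2.43. For Sesn1 and Cx3cr1 the direct comparison was not called (0.21 and -0.22, limma adjusted p = 0.0833 and 0.0882), and Sesn1 passed under TPM scaling, under quantile normalization and without IFN-β replicate 1.

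Other genes were pushed to opposite sides of the baseline. Themis2, a signalling adaptor of myeloid cells, stood at 508 and 507 FPKM with IFN-β, at 4.55 and 4.95 with spermine and at 25.7 and 23.8 at baseline, a difference of -6.47 ± 0.07 (SE). Hhex, a homeobox factor, stood at 91.5 and 88.1 FPKM with IFN-β and at 4.66 and 5.45 with spermine, around 22.4 and 23.9 at baseline. Jag1, a Notch ligand, was the mirror image, at 87.3 and 89.4 FPKM with spermine, 3.53 and 3.78 with IFN-β and 13.2 and 14.4 at baseline, a difference of 4.26 ± 0.07 (SE). Osgin1, a stress-induced growth inhibitor, stood at 47.1 and 55.6 FPKM with spermine, 1.85 and 2.25 with IFN-β and 10.1 and 11.0 at baseline. Irs2, an adaptor of the insulin receptor, stood at 17.4 and 21.5 FPKM, 1.08 and 1.18, and 4.90 and 5.66 in the same order.

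**Figure D4:**
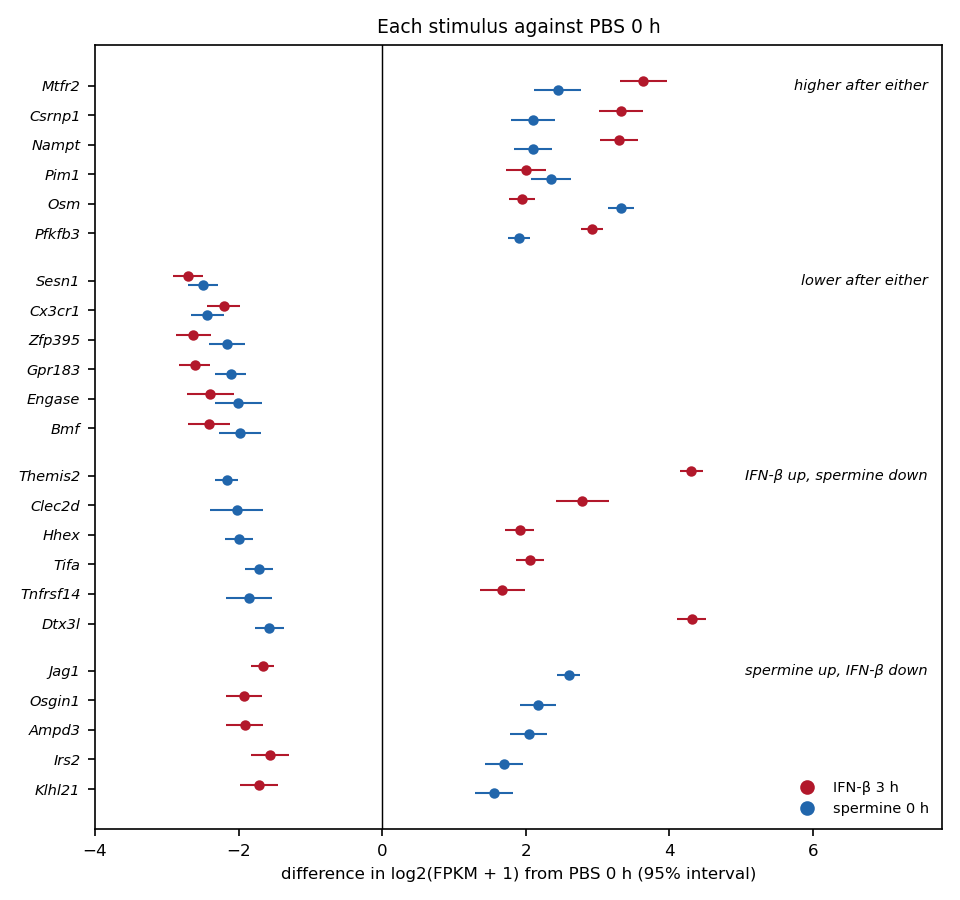
Difference in log2(FPKM + 1) from PBS 0 h, with its 95% interval, for IFN-β 3 h and spermine 0 h in 23 genes chosen by rule for moving the same or opposite ways; the 2 changes share the PBS 0 h libraries. Themis2 lies at 4.30 with IFN-β and -2.16 with spermine, and Jag1 at -1.67 and 2.60.

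When the cells had both spermine and IFN-β, several of these genes took levels between the single stimuli. Rsad2 stood at 2441 and 2638 FPKM, Cxcl10 at 1378 and 1387, and Gclc at 124 and 124. Hmox1, at 11540 and 11790 FPKM, lay above both single-stimulus groups, as did Irf1 at 262 and 253 and Tnf at 56.3 and 52.4. The antiviral list took 5.19% and 5.43% of reads there and the NRF2 list 6.07% and 5.95%, each between the shares with IFN-β and with spermine alone.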

How the data were processed

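Poly(A) RNA of 8 macrophage libraries was sequenced, and the authors deposited FPKM per gene. Per the submitters' processing notes, the build was GRCm38 and the tools included DESeq2 1.20.0, the read counter featureCounts 1.5.0-p3, the aligner HISAT2 2.0.5 and fastp, with no settings given. The deposited FPKM values were whole multiples of the worth of 1 read in 100% of cases (within 0.001 read), and the divisor differed from the read total, so libraries had been rescaled. Values were tested as log2(FPKM + 1) with limma 3.58.1 in R 4.3.3: means of 4 groups over all 8 libraries, intensity trend, two-sided, Benjamini-Hochberg over all genes with at least 1 FPKM in at least 2 libraries. limma voom on the rebuilt reads called 6383 genes. The fit was tested on simulated data. Besides the lists so marked above, members under 1 FPKM in every 0 h library numbered 2 each among polyamine, secreted and vascular, and alternative activation genes. They numbered 1 each among cell death, metal, sterol efflux, AP-1 and mitochondrial genes. All passed the filter only through libraries with IFN-β. Cxcl3 and Fosl1 passed it only through libraries with spermine, and such members were not counted over the lists. The genes, gene lists and motifs were chosen with earlier results of these data known. Genes were named by rule (the 10 largest protein-coding differences each way, 6 for each pattern against PBS 0 h, 3 each way in each list, and a set list of pathway genes), and further list members named as examples were chosen after their values were seen. Promoter windows came from RefSeq (GRCm38.p6). Values of some genes are not reported here.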

Additional observations from a re-analysis of the deposited data

How the results depend on the processing

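The count of genes called, 6324, lay between 5525 and 5967 when a library was left out, and between 5292 (a fit of the 2 groups alone) and 6728 (no filter) under the other choices planned. Scaling to TPM moved the median gene by 0.13 toward spermine and gave 3921 genes higher with spermine and 2575 with IFN-β, and quantile normalization gave 3922 and 2617. The majority turned to IFN-β with limma voom, at 3074 and 3309, and with no filter, at 3323 and 3405. The replicate numbers, which follow BM1 and BM2 in the titles, were not taken as pairs, since deviations of same-numbered libraries differed in sign between groups. They correlated at 0.37 between the groups compared and at 0.23 and 0.25 with PBS 0 h, but at -0.06 to -0.13 with the group given both. For 4114 genes of higher level these values were 0.73, 0.57 and 0.64, but -0.27 to -0.37 with the group given both. Whether same-numbered libraries share an origin was not tested. With a replicate block 6592 genes were called, and 7248 in a replicate block without the spermine and IFN-β group, added after seeing the data. The block brought the interferon regulatory factors called to 6 of 6, and without that group MHC class I to 22 of 22. Values near 0 changed sign, and the cause was not tested. Jak1 went to 0.10 under TPM, 0.15 under quantile normalization, and, leaving out 1 library at a time, ran from -0.12 (without spermine replicate 1) to 0.057 (without spermine replicate 2), with 0.022 without IFN-β replicate 1. Quantile normalization turned Hspa5 to 0.020, Tnf to 0.0038 and the inflammatory median to 0.0038, and Smox ran from -0.39 without IFN-β replicate 1 to 0.050 without IFN-β replicate 2. The median of the polyamine list became 0.026 under TPM, 0.053 under quantile normalization and 0.04 without spermine replicate 1, and leaving out 1 library gave from -0.19 to 0.12. With 2 libraries a group and 4 residual degrees of freedom, differences within about 0.26 of 0 were not detectable for a typical gene.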
